A study of Mus musculus with 12 samples.

Results

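The cells described here are the granulocytes of 6 mouse mammary tumours, taken as every cell that the authors' deposited annotation calls a granulocyte in the CD45 libraries. They number 13486 of the 54955 cells in those 6 libraries, and 115612 cells were deposited over all 12 libraries of the series. The tumours grew from 4T1, a mouse mammary carcinoma line, in the mammary fat pad of female BALB/c mice of 9 to 11 weeks. Clone E, Clone EM1, Clone EM2, Clone EM3 and Clone M are lines that each descend from 1 cell of 4T1, and the parental tumour grew from the uncloned line. No tumour is labelled as treated, and each group is 1 tumour. From every tumour there is a CD45 library, made after magnetic selection for the leukocyte antigen CD45, and a Total library. A difference between tumours can therefore be measured but not tested, and a clone cannot be told apart from the one tumour it gave.

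Granulocytes in mouse tumours are mostly neutrophils, short-lived cells that leave the bone marrow loaded with antimicrobial proteins stored in granules. The granule genes are transcribed during development in the marrow: azurophil granule genes first, then specific granule genes such as Ltf and Camp, then gelatinase granule genes such as Mmp9. In tissue, neutrophils switch on cytokine, chemokine and stress genes, and in 4T1 tumours they accumulate in large numbers and are known for suppressing T cells.

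Of the 13486 annotated cells, 44 were called doublets and left out. The share of granulocytes among the cells of the CD45 library was 24.2% in E, 27.5 in EM3, 15.0 in EM1, 11.9 in EM2, 50.4 in M and 24.9 in parental. Among the immune cells of the Total library it was 25.5% in E, 18.9 in EM3, 15.2 in EM1, 10.7 in EM2, 48.4 in M and 14.5 in parental. Clone M was highest and EM2 lowest in both. The summed depth ranged from 1001240 UMIs in EM2 to 4347739 in M, a UMI being 1 counted tag of an RNA molecule. The labels name a kit for fixed RNA and a kit for 3′ reads, so whether a UMI counts a bound probe or a transcript end was not settled. The median per cell ranged from 690 UMIs in EM2 and parental to 1220 in EM3, against 5131 to 7690 in the macrophages of the same libraries.

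The label held against the markers. In the automated reference annotation deposited with the cells, 13227 of the 13442 cells were neutrophils and 208 were macrophages, of which 181 came from E, EM3 and parental. S100a9, a subunit of calprotectin, was at 81654 CPM in E, 91526 in EM3, 105829.6 in EM1, 111854 in EM2, 74652 in M and 89843 in parental. S100a8, the partner subunit, was at 55675 CPM in E, 61323 in EM3, 77269 in EM1, 84696 in EM2, 54683 in M and 59060.3 in parental. Together they made up 12.9% of all granulocyte UMIs in M and 19.7% in EM2. Cxcr2, the receptor that guides neutrophils along CXC chemokines, ranged from 874 CPM in M to 1181 in EM2, and Retnlg from 2245 in E to 4508 in EM2. G0s2 lay between 1649.9 CPM in EM3 and 2717 in parental. CPM here is the UMI count of a gene in the granulocytes of a library over the UMIs of all genes in those cells, on the usual CPM scale. The 5 eosinophil markers summed to 75.9 CPM in E and at most 46.0 in the other tumours. Among them Siglecf, which some neutrophils also express, was at 58.9 CPM in E, and Epx had no UMI in any tumour. The 5 basophil markers summed to at most 2.10 CPM. The 4 B cell markers summed to at most 17.8 CPM, the 5 T cell markers to 22.8 to 91.7 and the 5 tumour cell markers to 5.29 to 27.3. The 8 macrophage markers summed to 2938 CPM in M, the lowest, and 6137 in parental, the highest. In the Total libraries tumour cell markers reached 276 to 1017 CPM in granulocytes and fibroblast markers 214 to 869.7, which limits those libraries as a second measurement.

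The libraries did not stand alone. Cell barcodes begin with 16 bases that mark the droplet, and 14 of the 66 pairs of libraries had 12.2% to 19.1% of the smaller library's droplet barcodes in common, against 0.686% to 1.91% in the other 52 pairs. These 14 pairs group the 4 libraries of E and EM3, the 4 of EM1 and EM2, the 2 of M and the 2 of parental. Between 15.5% and 35.5% of the granulocytes of a tumour had a droplet barcode that another library of its set also held. Whether clones of different sets differ by clone or by library set cannot be told apart, so the differences EM3 minus E and EM2 minus EM1, which lie inside a set, are given for the gene lists and for the genes past 2-fold there.

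Levels were compared as log2(CPM + 10) over the 3167 genes that reached 50 CPM in at least 1 tumour. Of these, 415 genes, 13.1%, differed at least 2-fold between the highest and the lowest tumour. The median range of all tested genes was 0.58 log2 units. For 97.1% of the 415 genes the highest tumour was also above the lowest in the Total libraries, and 185 genes reached 2-fold there with the same tumours. Clone M was the highest tumour for 116 of the 415 genes and the lowest for 138, and EM2 the lowest for 91. Without M, 231 of 3086 tested genes reached 2-fold, 7.49%, and without M and parental 160 of 3007, 5.32%. In the granulocytes without a UMI of C1qa, C1qb, C1qc or Adgre1, 879 of 3360 did, 26.2%. At full depth, 54.9% of granulocytes in M to 85.3% in EM3 had a UMI of C1qa, C1qb or C1qc. That subset is therefore smaller and lost more cells in some tumours than in others. The part of counting error in the 879 genes was not tested.

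Differences inside the barcode-sharing sets were counted next. EM3 was at least 2-fold above E for 8 genes, 0.253% of those tested, and at least 2-fold below it for 17, 0.537%. EM2 was at least 2-fold above EM1 for 13 genes, 0.410%, and below it for 15, 0.474%. The other 13 pairs of tumours had 39 to 141 such genes, with the largest number between E and M. In the Total libraries the counts were 27 for E and EM3, 51 for EM1 and EM2 and at least 45 for each of the other pairs, so the EM1 and EM2 count lay above that of EM2 and EM3. Of the 25 genes between E and EM3, 14 reached 2-fold in the same direction in the Total libraries, and so did 12 of the 28 between EM1 and EM2. Both sets of genes included 4 rows whose names the table marks as deprecated, all higher in EM3 and EM2 and all without a 2-fold difference in the Total libraries. In macrophages of the CD45 libraries these rows were higher in EM3 and EM2 too, by 0.57 to 1.59 log2 units.

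The list medians inside the sets are given as EM3 minus E and then EM2 minus EM1, in log2 units, and over all tested genes they were -0.03 and -0.05. They were -0.16 and 0.51 for specific granule genes, -0.69 and -0.05 for cytokines, -0.05 and -0.38 for interferon genes and -0.37 and -0.47 for MHC genes. For heat shock genes they were 0.23 and 0.17, and for hypoxia genes 0.12 and -0.47. The cytokine list was thus low in EM3 against E, and the granule list high in EM2 against EM1.

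**Figure D1:**
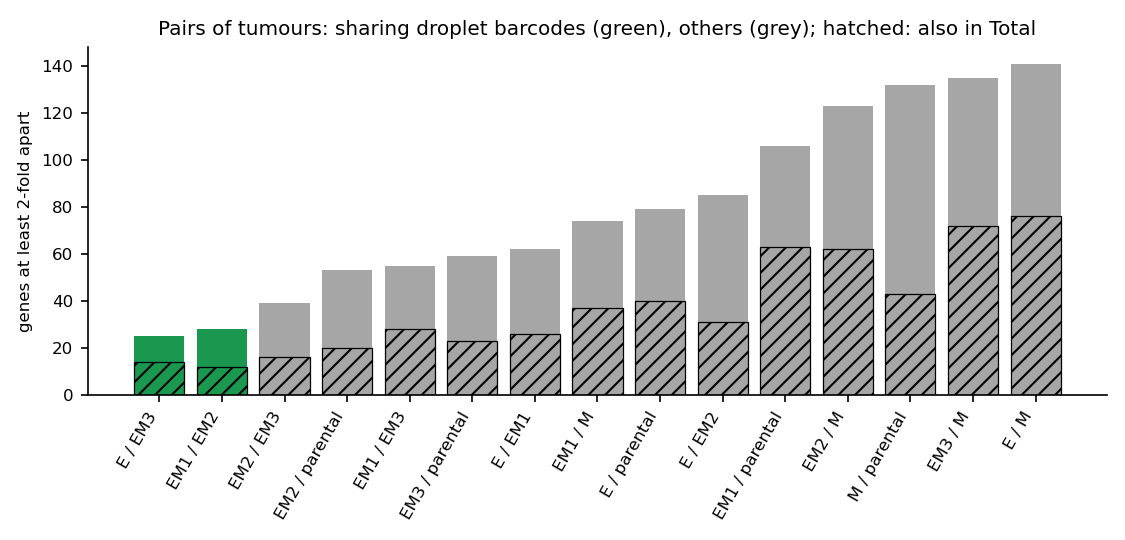
Number of genes at least 2-fold apart in granulocytes (vertical axis) for each of the 15 pairs of tumours, in the CD45 libraries; hatching marks the genes that were also 2-fold apart in the same direction in the Total libraries. The pairs that share droplet barcodes (green) have 25 and 28 genes, and the others (grey) 39 to 141.

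Specific granule genes differed widely between tumours. All 14 genes of the specific and gelatinase granule list passed the level filter and 10 had a 2-fold range, 71.4% against 13.1% of all tested genes, with a median range of 1.32 log2 units. This list and those below were chosen with earlier results of these data known. The share of a list past 2-fold is therefore a description of its genes and no test. EM2 was highest for 11 of the 14 and M lowest for 10. Ltf, which encodes the iron-binding protein lactoferrin, was at 941 CPM in E, 583 in EM3, 897 in EM1, 2400.0 in EM2, 292 in M and 1503 in parental. Camp, the cathelicidin antimicrobial peptide, was at 337 CPM in E, 213 in EM3, 327 in EM1, 1262 in EM2, 138 in M and 695 in parental. Ngp, a neutrophilic granule protein, was at 2820.0 CPM in E, 1866 in EM3, 2997 in EM1, 6659.7 in EM2, 1016 in M and 4065 in parental. EM2 stood highest and M lowest for all of Ltf, Camp and Ngp, and their counting intervals did not meet: Ltf was 2400.0 CPM (interval 2305 to 2498) in EM2 and 292 CPM (interval 276 to 308) in M. Interval here means the exact 95% Poisson interval of the count, which covers counting error only and no difference between animals.

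The Total libraries gave the same order at the ends, with Ltf at 4003 CPM in EM2 and 377 in M, and Camp at 2809 and 197. Inside the set of EM1 and EM2, 4 of the 14 list genes were at least 2-fold higher in EM2, against 0.410% of all tested genes: Camp by 1.92 log2 units, Chil3 by 1.81, Ltf by 1.41 and Ngp by 1.15. Chil3 encodes a chitinase-like protein. It was also the only list gene past 2-fold between E and EM3, at -1.21. Macrophages of the same libraries held at most 11.5 CPM of Ngp and 3.42 of Ltf. Chil3 was present in macrophages, with 214 CPM in macrophages of E and 44.7 in those of EM3, a difference of -2.03 log2 units.

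Other granule genes followed the same ends with smaller ranges. Cd177, a surface glycoprotein of neutrophils, was at 664 CPM in E, 491 in EM3, 633 in EM1, 921 in EM2, 250.02 in M and 532 in parental. Lcn2, the iron-siderophore binder lipocalin 2, ranged from 2059 CPM in M to 5057 in EM2, and Ly6g, the antigen used to stain mouse neutrophils, from 115 to 401. Mmp9, the gelatinase of the last granules to form, had another order: it was at 952 CPM in E, 850.0 in EM3, 1304 in EM1, 1353 in EM2, 1741 in M and 1162 in parental. M was highest and EM2 next, and E and EM3 were lowest. Mmp25 and Hp had the smallest ranges of the list, 0.55 and 0.86 log2 units. The 6 azurophil granule genes were all under the filter in the CD45 libraries.

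**Figure D2:**
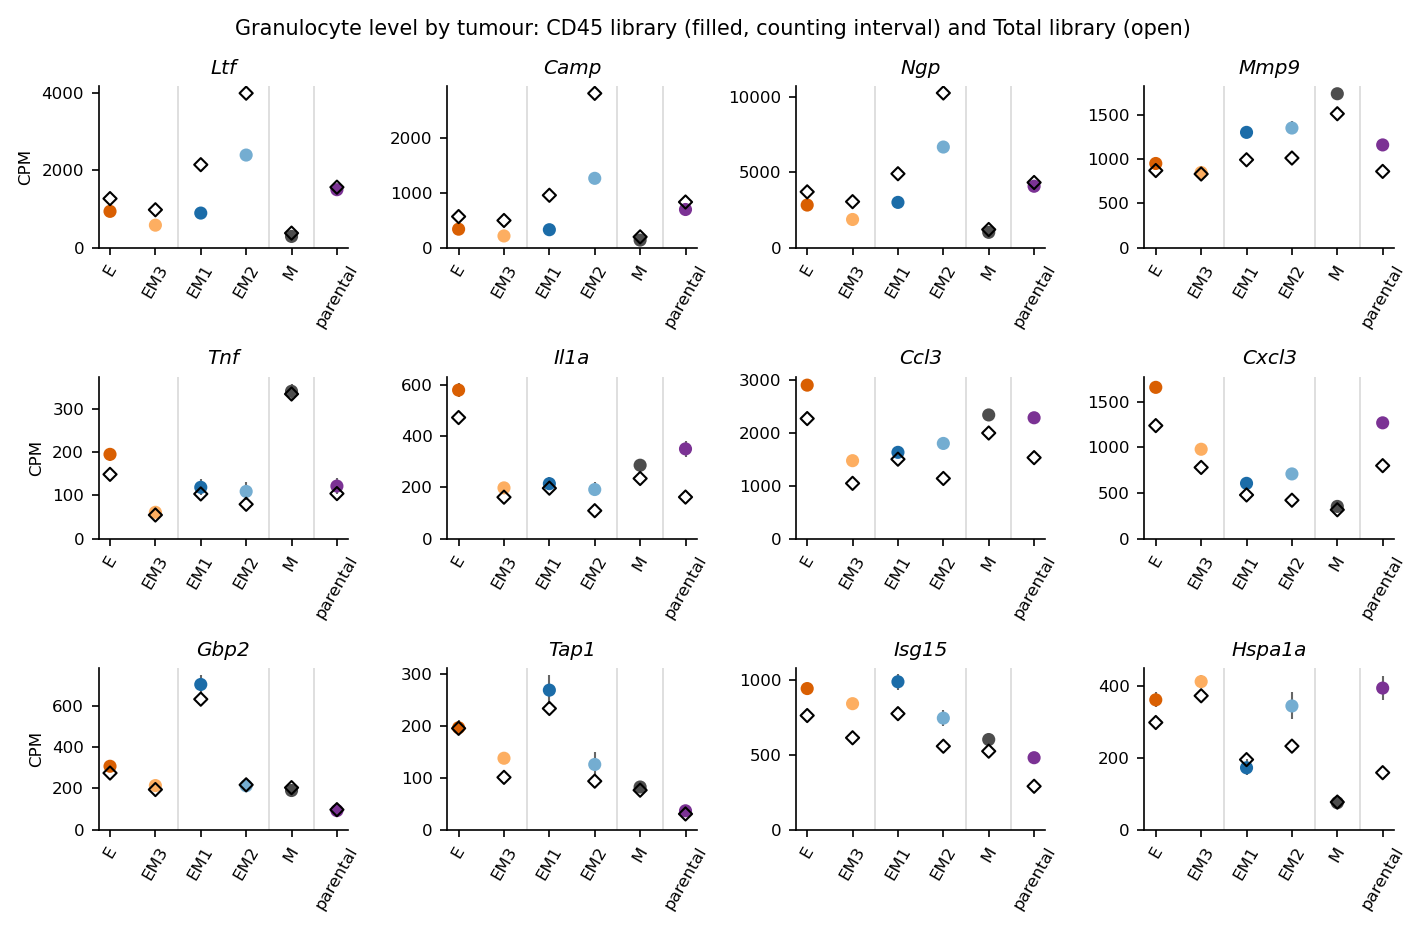
Level of 12 genes in granulocytes (CPM, linear axis from 0) in each tumour; filled points are CD45 libraries with their 95% counting interval, open diamonds the Total library of the same tumour, and grey lines separate the barcode-sharing sets. EM2 is highest and M lowest for Ltf, Camp and Ngp, M is highest for Mmp9 and Tnf, E for Il1a, Ccl3 and Cxcl3, and EM1 for Gbp2, Tap1 and Isg15.

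Most receptor and adhesion genes had no 2-fold range. Of the 20 receptor and adhesion genes 2 had a 2-fold range, 10.0% and near the 13.1% of all tested genes, and the median range was 0.63 log2 units, near the 0.58 of all tested genes. Itgb2, the common chain of the leukocyte integrins, spanned 0.21 log2 units, and C5ar1, the receptor of complement fragment C5a, 0.24. The 2 exceptions were Icam1, an adhesion molecule induced on activated cells, and Ltb4r1, a leukotriene B4 receptor. Icam1 was at 107 CPM in E, 43.1 in EM3, 57.7 in EM1, 56.9 in EM2, 207 in M and 93.9 in parental, with M highest and EM3 lowest. Ltb4r1 was lowest in M at 61.2 CPM and highest in E at 158. Cxcr4, the receptor that holds neutrophils in the marrow and is regained with age, was at 558 CPM in E, 612 in EM3, 738 in EM1, 785 in EM2, 1088 in M and 816 in parental, short of a 2-fold range.

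Among 9 NADPH oxidase, leukotriene and extracellular trap genes, 2 had a 2-fold range, 22.2% against 13.1% of all tested genes. Cybb, the catalytic subunit of the phagocyte oxidase, was at 154 CPM in E, 126 in EM3, 179 in EM1, 269.7 in EM2, 86.3 in M and 207 in parental. Padi4, the enzyme that citrullinates histones in extracellular traps, was at 215 CPM in EM2 and 88.8 in M. Both had the ends of the granule genes, EM2 high and M low. In the Total libraries Padi4 was highest in parental, at 353 CPM. Of 8 annexin, stefin and small secretory genes 1 had a 2-fold range, 12.5%, which is near that share: Stfa3, a cysteine protease inhibitor of a family of near-identical copies whose counts may be mixed.

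Cytokine and chemokine genes also differed between tumours. Of 13 list genes that passed the filter, 7 had a 2-fold range, 53.8% against 13.1% of all tested genes, with a median of 1.18 log2 units, and E was highest for 8. Il1a, the alarm cytokine interleukin 1 alpha, was at 579.6 CPM in E, 198 in EM3, 215 in EM1, 192 in EM2, 287 in M and 350.3 in parental. Cxcl3, a chemokine that attracts neutrophils through Cxcr2, was at 1657 CPM in E, 979 in EM3, 606 in EM1, 709 in EM2, 353 in M and 1269 in parental. Il1a stood highest in E and was similar in EM3, EM1 and EM2, and Cxcl3 was lowest in M. In macrophages Il1a was also highest in E, at 757 CPM, and the mean of the list was 8.92 in E, 8.70 in EM3, 8.48 in EM1, 8.48 in EM2, 8.10 in M and 8.54 in parental. Cxcl3 in macrophages was at 1442 CPM in E, 1487 in EM3, 510.3 in EM1, 757 in EM2, 545 in M and 1306 in parental, with E, EM3 and parental high, and the granulocyte level was 64.9% to 119% of it. The part of macrophage RNA in the granulocyte level was not tested.

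Ccl3, a chemokine for monocytes and T cells, was at 2906 CPM in E, 1476 in EM3, 1634 in EM1, 1803 in EM2, 2342 in M and 2289 in parental, a range of 0.97 log2 units. Cxcl2 and Il1b, both among the 10 most abundant genes of the cells, spanned 0.69 and 0.72, with E highest for both. Tnf had a different order: it was at 194 CPM in E, 60.8 in EM3, 118 in EM1, 109 in EM2, 339.7 in M and 121 in parental. Its highest tumour was M, and the interval of M, 323 to 357 CPM, lay above that of E, 179.8 to 209.9. Csf1, the macrophage growth factor, was highest in E and M, at 529.6 and 513 CPM, and lowest in EM2 at 222.

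The genes past 2-fold between E and EM3, whose libraries share droplet barcodes, included 2 of the 13 of this list, Tnf and Il1a, both lower in EM3, against 0.537% of all tested genes lower there. The widest differences, EM3 minus E, were -3.64 log2 units for Ighg1 and -2.72 for Igkc, immunoglobulin genes that are not known as granulocyte genes, with -1.72 and -1.48 in macrophages. The 8 genes higher in EM3 were the 4 deprecated rows and Fcrls, Folr2, Pmp22 and Pf4, which were higher in EM3 in macrophages too, by 2.56, 1.85, 1.29 and 1.08. The difference EM3 minus E was -1.53 log2 units for Tnf, -1.50 for Il1a, -1.15 for Icam1 and -1.001 for Siglecf, with values of -1.29, -1.49, -0.74 and -0.95 in the Total libraries. Inhba, the activin A subunit, differed by -1.40 log2 units, Ikbke, a kinase of the NF-kappa-B pathway, by -1.18, and Car4, a carbonic anhydrase, by -1.89. In macrophages the same contrast was -0.37 for Tnf, -0.43 for Il1a and 0.22 for Ikbke, and -1.43 for Inhba. Between EM1 and EM2, Cxcl1 was the only cytokine list gene past 2-fold, higher in EM2 by 1.09.

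Of the 12 tumour-adapted neutrophil genes 4 had a 2-fold range, 33.3% against 13.1% of all tested genes: Cd274, Ccrl2, Spp1 and Siglecf. Cd274, which encodes the checkpoint ligand PD-L1, was at 707 CPM in E, 513 in EM3, 595 in EM1, 336 in EM2, 303 in M and 282 in parental. E and EM1 were highest and parental and M lowest, and the granulocyte level was 114% to 278% of the macrophage level in every library. Siglecf, a lectin that marks a neutrophil population of tumours, was at 58.9 CPM in E and 23.0 to 30.8 in the others. It passed the 50 CPM filter only through E, where it is high, so its place among the 4 genes adds no support to that share. Cd14 and Lgals3 were the steadiest of this list, with ranges of 0.25 and 0.23 log2 units, and Cd14 was among the 10 most abundant genes.

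Arg1, which encodes the arginine-depleting enzyme arginase 1, had the largest range of the immunosuppression list, 2.67 log2 units. It was at 467 CPM in E, 520.0 in EM3, 73.2 in EM1, 137 in EM2, 102 in M and 387 in parental. As a percent of the macrophage level in the same library this was 12.1% in E, 12.9 in EM3, 5.64 in EM1, 8.62 in EM2, 6.21 in M and 15.1 in parental. The same percent for the 3 C1q genes, markers of macrophages, was 14.0% in E, 16.5 in EM3, 6.95 in EM1, 8.38 in EM2, 6.22 in M and 17.0 in parental. Both percents were high in E, EM3 and parental and low in EM1, EM2 and M. For shares, each cell was thinned to 500 UMIs, which left out the shallower cells, 104 in E, 89 in EM3, 239 in EM1, 176 in EM2, 183 in M and 364 in parental. Of the rest, the share of granulocytes with a UMI of Arg1 was 22.6% in E, 25.97 in EM3, 4.74 in EM1, 8.11 in EM2, 5.18 in M and 18.2 in parental, and unthinned, over all granulocytes, 6.86% to 51.5%. The share of T cells, which are not known to express it, was 15.1% in E, 19.9 in EM3, 3.61 in EM1, 5.98 in EM2, 3.56 in M and 13.9 in parental, in nearly the same order of tumours. For the C1q genes the share of granulocytes was 44.0% in E, 54.1 in EM3, 36.1 in EM1, 42.7 in EM2, 33.9 in M and 58.3 in parental, and that of T cells 33.1% in E, 42.4 in EM3, 34.4 in EM1, 34.9 in EM2, 27.6 in M and 48.9 in parental. Granulocytes lay above T cells in 6 of 6 tumours for Arg1 and for the C1q genes. No difference in Arg1 between tumours is read from these levels, and the part of macrophage RNA in them was not tested.

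Of the 11 suppression genes that passed the filter 4 had a 2-fold range, 36.4% against 13.1% of all tested genes: Arg1, Nos2, Ptgs2 and Olr1, a scavenger receptor. Arg2, the mitochondrial arginase, spanned 0.40 log2 units, from 921 CPM in EM2 to 1215 in E. Nos2, inducible nitric oxide synthase, was at 159 CPM in E, 114 in EM3, 102 in EM1, 60.9 in EM2, 84.4 in M and 93.2 in parental, 457% to 1213% of the macrophage level. Ptgs2, the inducible prostaglandin synthase, was highest in E at 592 CPM and lowest in M at 221, but in the Total libraries parental was highest at 1359. Tumour cell RNA was higher in those libraries, and its part in that level was not tested.

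**Figure D3:**
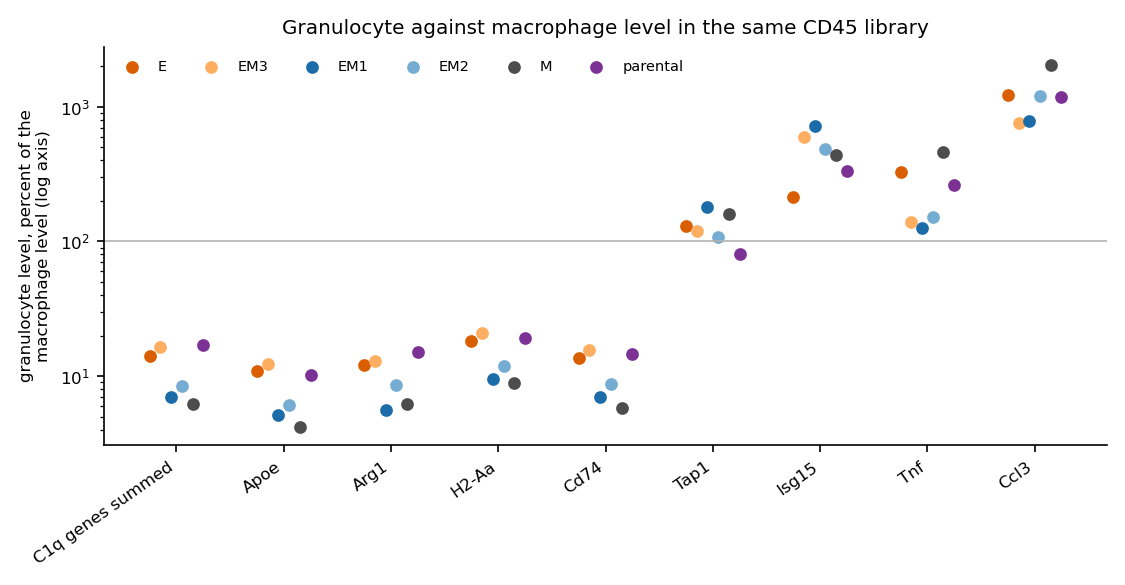
Level in granulocytes as a percent of the level in macrophages of the same CD45 library (vertical log axis) for 9 genes or gene groups, 1 point per tumour; the grey line marks 100%. The C1q genes, Apoe, Arg1, H2-Aa and Cd74 lie between 4.20% and 21.0% with the tumours in nearly the same order, and Isg15, Tnf and Ccl3 lie above 100% in every tumour.

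Interferon-response genes were highest in EM1 and lowest in parental. Of the 10 type I interferon response genes that passed the filter, 8 had a 2-fold range, 80.0% against 13.1% of all tested genes, with a median range of 1.26 log2 units, and parental was lowest for 9. Isg15, a ubiquitin-like protein induced by interferon, was at 945 CPM in E, 844 in EM3, 991 in EM1, 747 in EM2, 604 in M and 482 in parental. Rsad2, the antiviral enzyme viperin, was at 227 CPM in E, 451 in EM3, 329.9 in EM1, 353 in EM2, 256 in M and 123 in parental. Both were lowest in parental, and Rsad2 was highest in EM3, 1 of the 2 list genes highest outside E and EM1. The list mean, in log2(CPM + 10), was 7.25 in E, 7.29 in EM3, 7.48 in EM1, 7.20 in EM2, 6.95 in M and 6.42 in parental. In macrophages it was 6.14 in E, 5.59 in EM3, 5.57 in EM1, 5.70 in EM2, 6.04 in M and 5.69 in parental, with E highest and EM1 lowest.

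Inside the set of EM1 and EM2, no member of this list was past 2-fold. The widest of the 15 genes at least 2-fold lower in EM2 were Ighg1, Gzmc and Igkc, which are not known as granulocyte genes, at -2.90, -2.45 and -2.09 log2 units, with -2.64, 0.60 and -3.13 in the Total libraries. Gbp2, a guanylate-binding GTPase induced by interferon gamma, was at 307 CPM in E, 214 in EM3, 703 in EM1, 213 in EM2, 189.5 in M and 92.5 in parental. EM1 was above every other tumour at least 2-fold, in the Total library as well, where it had 632 CPM and EM2 217. The difference EM2 minus EM1 was -1.68 log2 units for Gbp2, -1.28 for its near-identical copy Gbp2b, -1.10 for Parp10, -1.05 for the immunity-related GTPase Irgm1 and -1.04 for the peptide transporter Tap1. The 15 genes also included Gbp2, Gbp2b, Parp10, Irgm1, Irgm2, Tap1, Ifi47 and Zbp1, which are known as interferon-induced. These were named after their values were seen, from no fixed list. In macrophages the same differences were 0.03 for Gbp2, 0.06 for Parp10 and -0.11 for Irgm1.

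The promoters of 3 of these genes are shown because each carries a motif known from type I interferon signalling, and because all were lowest in parental. The windows are the 250 bases before the transcription start in RefSeq annotation of GRCm38.p6, 5′ to 3′ on the strand of the gene, with matches in capitals to GAAA followed by any 2 bases and GAAA, on either strand, overlapping matches joined. They lie at chr4:156200819-156201068 on the minus strand for Isg15, chr12:26456453-26456702 on the minus strand for Rsad2 and chr3:142620413-142620662 on the plus strand for Gbp2.
Isg15: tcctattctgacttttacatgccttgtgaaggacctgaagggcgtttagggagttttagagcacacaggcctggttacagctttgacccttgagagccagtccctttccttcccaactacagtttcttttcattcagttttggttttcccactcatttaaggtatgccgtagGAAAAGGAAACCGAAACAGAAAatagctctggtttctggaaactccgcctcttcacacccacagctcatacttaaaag
Rsad2: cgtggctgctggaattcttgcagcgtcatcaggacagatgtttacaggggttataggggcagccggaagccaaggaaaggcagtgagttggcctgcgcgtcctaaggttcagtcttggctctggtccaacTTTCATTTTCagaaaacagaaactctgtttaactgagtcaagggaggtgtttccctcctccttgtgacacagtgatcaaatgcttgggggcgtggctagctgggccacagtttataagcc
Gbp2: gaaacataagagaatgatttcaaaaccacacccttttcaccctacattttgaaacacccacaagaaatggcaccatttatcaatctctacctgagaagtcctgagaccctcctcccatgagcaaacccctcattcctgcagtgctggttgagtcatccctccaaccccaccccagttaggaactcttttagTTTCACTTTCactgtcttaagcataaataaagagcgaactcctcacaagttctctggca
Isg15 has 3 overlapping matches, and Rsad2 and Gbp2 have 1 each. The motif stood in 5 of the 14 interferon list genes that had a window (Ifit1, Ifit3, Isg15, Oas3 and Rsad2) and in 4 of the 10 genes with a window that were at least 2-fold higher in EM1 than in EM2 (Gbp2, Gbp2b, Irgm1 and Irgm2). All 27025 genes with a window held it in 3.46% of cases, and the genes tested in granulocytes in 3.69%. It stood in 1 of 8 MHC genes with a window (B2m), 1 of 12 cytokine genes (Cxcl10), none of 12 specific granule genes and none of 7 heat shock genes. A match is a description of the letters only.

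Genes of antigen presentation were low in parental and M. Of the 12 MHC class I and class II genes that passed the filter, 9 had a 2-fold range, against 13.1% of all tested genes, and parental was lowest for 8 and M for 4. Tap1 was at 197 CPM in E, 138 in EM3, 269 in EM1, 126 in EM2, 82.3 in M and 36.4 in parental. Psmb9, an immunoproteasome subunit, was at 126 CPM in E, 87.3 in EM3, 173 in EM1, 93.9 in EM2, 53.6 in M and 37.8 in parental. Nlrc5, the transactivator of class I genes, was 169 CPM in EM1 and 24.5 in parental, below every other tumour at least 2-fold. The class I heavy chain gene H2-D1 and B2m had the smallest ranges of the 12 MHC genes, 0.43 and 0.59 log2 units. In macrophages Tap1 was at 153 CPM in E, 114 in EM3, 149.9 in EM1, 117 in EM2, 51.2 in M and 45.0 in parental, so parental and M were lowest in both cell types.

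MHC class II genes stood at percents of the macrophage level near those of the C1q genes. H2-Aa, a class II chain, was at 1647 CPM in E, 1408 in EM3, 1032 in EM1, 1052 in EM2, 287 in M and 573 in parental, and as a percent of the macrophage level 18.3% in E, 21.0 in EM3, 9.47 in EM1, 11.8 in EM2, 8.82 in M and 19.2 in parental. Cd74, the invariant chain, stood at 5.78% to 15.6% of it. E, EM3 and parental again had the high percents. In macrophages H2-Aa itself was 8993 CPM in E, 6699.7 in EM3, 10896 in EM1, 8889.7 in EM2, 3249.5 in M and 2978 in parental. After thinning, the share of granulocytes with a UMI of it was 57.9% in E, 53.3 in EM3, 41.2 in EM1, 42.9 in EM2, 13.8 in M and 25.5 in parental. That of T cells was 44.6% in E, 42.0 in EM3, 34.0 in EM1, 38.2 in EM2, 11.3 in M and 22.6 in parental, lower in 6 of 6 tumours, and the part of macrophage RNA in the granulocyte level was not tested.

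Heat shock genes were lowest in M. Of 7 list genes that passed the filter, 4 had a 2-fold range, 57.1% against 13.1% of all tested genes, and M was lowest for 5. Hspa1a, the inducible chaperone HSP70, was at 362 CPM in E, 412 in EM3, 172 in EM1, 345 in EM2, 75.2 in M and 394 in parental, and M was below the next tumour by 1.10 log2 units. Hspa1b, a near-identical copy that may share its counts, was at 430.5 CPM in E, 412 in EM3, 176 in EM1, 199.8 in EM2, 75.7 in M and 321 in parental. In macrophages Hspa1a was highest in EM3, at 382 CPM, and lowest in E, at 102. In T cells it was highest in EM3, at 439.8 CPM, and lowest in M, at 22.2. The list mean of EM3 minus M was 1.17 log2 units in granulocytes and 0.67 in macrophages. The order of the other tumours differed between these 2 cell types. E had a list mean of 7.47 in granulocytes and 7.32, the lowest, in macrophages, and EM1 had 6.84 and 7.69. Whether the cell types share a cause was not tested.

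Hypoxia and glycolysis genes were mostly lowest in EM2. Of 15 that passed the filter 4 had a 2-fold range, 26.7% against 13.1% of all tested genes, and EM2 was lowest for 11. The share of all tested genes lowest in EM2 is not given here. Their median lay -0.11 log2 units from the mean of the tumours in EM2, the lowest value of any tumour. EM2 was also lowest for 7 of 12 survival genes and 7 of 24 transcription factors, but for 0 of 14 specific granule genes. The 11 of 15 is therefore not read as particular to hypoxia genes. Bnip3, a mitochondrial protein induced by low oxygen, was at 76.4 CPM in parental and 27.0 in EM2, and Egln3, a prolyl hydroxylase of the same response, was 237 in E, 91.9 in EM2 and 91.8 in M. Slc2a3, a glucose transporter, ran the other way, with 481 CPM in EM2 and 232 in M. Aldoa and Pkm, glycolytic enzymes, spanned 0.41 and 0.37 log2 units.

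The transcription factor and survival lists had shares of 2-fold genes near or below the 13.1% of all tested genes. Of 24 transcription factors 3, 12.5%, had a 2-fold range: Irf1, Nfkbiz and Cebpa. Irf1, an interferon-induced factor, was highest in EM1 at 268 CPM and lowest in parental at 72.9. Nfkbiz was highest in M at 423 and lowest in EM3 at 190.3. Of 12 survival and death genes 1, 8.33%, had a 2-fold range: Bcl2a1b, 1 of several near-identical copies, with 179.8 CPM in E and 75.9 in EM2. Mcl1, on which neutrophils depend for survival, spanned 0.33 log2 units. None of the 11 cell division genes reached 50 CPM.

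**Figure D4:**
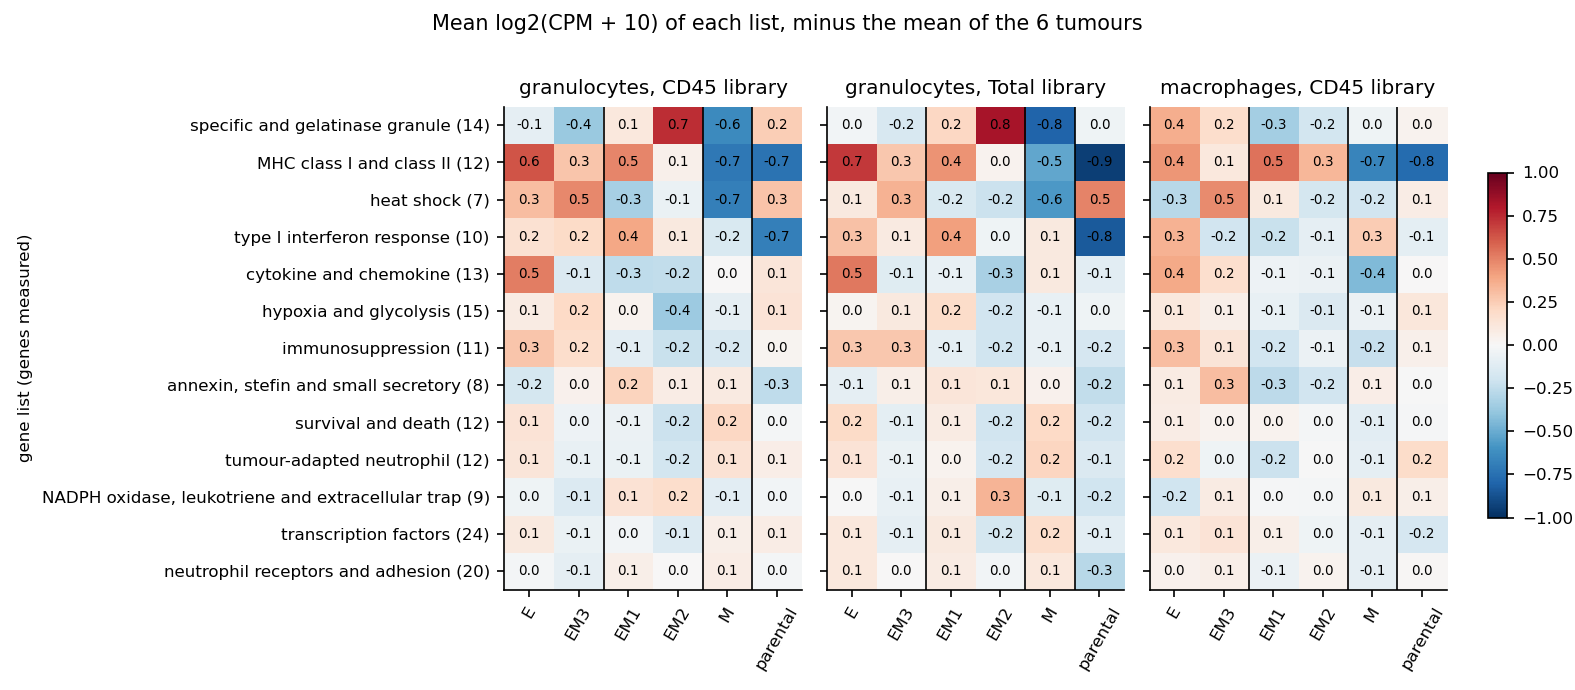
Mean log2(CPM + 10) of 13 gene lists, each minus its mean over the 6 tumours (colour and numbers, log2 units), for granulocytes of the CD45 libraries, granulocytes of the Total libraries and macrophages of the CD45 libraries; vertical lines separate the barcode-sharing sets. Specific granule genes have their highest value in EM2 and lowest in M in both granulocyte panels, and interferon genes their lowest in parental.

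Single tumours stood apart for few genes. In 15 genes, 0.474% of those tested, 1 tumour was at least 2-fold above the next and was highest in its Total library too, and in 7 genes, 0.221%, 1 tumour was that far below the next and lowest in its Total library. E stood above the others for Car4, at 202 CPM against at most 58.1, for Inhba and for Hbegf, a growth factor of the EGF family. Hbegf, at 61.3 CPM in E and 21.9 in EM3, passed the 50 CPM filter only through E, where it is high. Its place among the 15 genes therefore adds no support to that count. M stood above for Gpc3 and Dtx4 and below for Tgm1, the transglutaminase, at 8.97 CPM against 42.9 to 110.1. Parental stood below the others for the interferon-induced genes Zbp1, Parp14 and Nlrc5.

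Some of the genes that stood apart are not known as granulocyte genes. In EM1 the immunoglobulin genes Igkc, Ighg1 and Jchain were at 448, 354 and 58.4 CPM, and macrophages of EM1 held 314, 278 and 22.7. In parental, Ctsk, Acp5 and Mt2 were at 99.5, 113 and 125 CPM, against 26.7, 259 and 1034 in its macrophages. Jchain passed the 50 CPM filter only through EM1 and Ctsk only through parental, where each is high, so neither adds support to the count above. The part of free RNA in these levels was not tested.

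States within the granulocytes were described by clustering the 12287 cells with at least 500 UMIs, leaving out the 273 genes of the fixed lists and marker sets so that these could be read afterwards. The clustering gave 6 clusters, and each held cells of all 6 tumours. Cluster 1, with 4206 cells, led with Ugcg, a glycolipid synthase, which was 1.08 log2 units above the other clusters. Its share of the granulocytes was 24.6% in E, 34.0 in EM3, 34.9 in EM1, 48.9 in EM2, 31.0 in M and 51.4 in parental.

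Cluster 5, with 958 cells, was the granule-rich cluster. The held-out specific granule list was highest in it in 6 of 6 tumours, by 2.87 to 3.35 log2 units over the mean of the other clusters. Ltf was at 2242 to 8020.2 CPM there, and at 17.8 to 34.6 CPM in cluster 1. The oxidase and trap list was also highest in it in 6 of 6 tumours. The tumour-adapted, cytokine, suppression, interferon, MHC, hypoxia, survival and transcription factor lists were lowest in it in 6 of 6. Its cells had a median of 2552 UMIs, against 963 to 1202 in the other clusters. Its share was 7.58% in E, 8.21 in EM3, 11.5 in EM1, 13.4 in EM2, 4.87 in M and 8.28 in parental. After thinning, the share of granulocytes of at least 500 UMIs with a UMI of Ltf, Ngp or Camp was 10.8% in E, 9.4 in EM3, 11.0 in EM1, 15.1 in EM2, 5.93 in M and 9.97 in parental, against 0.593% to 2.39% of T cells. Unthinned, over all granulocytes, it was 16.6% in E, 16.3 in EM3, 14.2 in EM1, 16.3 in EM2, 9.37 in M and 11.3 in parental. M was thus lowest both ways, and EM2 was highest only after thinning.

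Cluster 2, with 3034 cells, was highest for the heat shock and the hypoxia lists in 6 of 6 tumours, by 1.72 to 2.17 and 1.06 to 1.76 log2 units. The tumour-adapted and the transcription factor lists were highest in this cluster in 4 of 6 tumours. Hspa1a was at 290.3 to 1707 CPM in it and Slc2a1, a glucose transporter, at 1170.4 to 1667 CPM, against 517 to 718 CPM in cluster 1. The receptor and adhesion list was lowest in it in 5 of 6 tumours, with Cxcr2 at 379 to 659 CPM against 1221 to 1482 CPM in cluster 5. Its share was 25.8% in E, 39.7 in EM3, 14.5 in EM1, 15.1 in EM2, 18.9 in M and 21.2 in parental.

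Cluster 3, with 993 cells, was highest for the type I interferon list and for the MHC list in 6 of 6 tumours, by 1.82 to 3.40 and 0.72 to 1.39 log2 units. Isg15 was at 2329.9 to 3709 CPM and Rsad2 at 963 to 3528 CPM. It led with Ifi47, Rsad2, Cmpk2, Gbp2b and Slfn5, all interferon-induced. Its share was 10.46% in E, 7.62 in EM3, 21.4 in EM1, 8.56 in EM2, 4.37 in M and 2.68 in parental.

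Cluster 4, with 2741 cells, led with Car4, Ikbke, Siglecf and Icam1. It was highest for the receptor and adhesion list in 6 of 6 tumours, for the survival list in 5 and for the cytokine list in 4. The tumour-adapted list, which holds Siglecf, was highest in cluster 4 in 1 tumour, in cluster 3 in 1 and in cluster 2 in 4. Siglecf was highest in it in 6 of 6 tumours, at 57.4 to 179 CPM against 22.9 to 30.7 CPM in cluster 1, and Tnf was at 91.9 to 535 CPM against 51.4 to 167 CPM. Its share was 29.1% in E, 9.08 in EM3, 14.8 in EM1, 12.4 in EM2, 35.8 in M and 15.0 in parental. Cluster 6, with 355 cells, led with Cadm4, Zfp428, Supv3l1 and Ifitm10, and it was given no description. Mpo, the azurophil granule peroxidase, was the tenth gene by difference there, at 53.7 to 156 CPM and 3.34 log2 units above the other clusters, although it stayed under 50 CPM over all granulocytes of each tumour. These levels rest on few molecules: the cluster held 15 cells in EM2 and 19 in parental, whose granulocytes had 14 and 13 UMIs of azurophil genes in all. These shares restate the genes the clustering used, which differ between tumours, and are no separate support for the gene levels above.

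**Figure D5:**
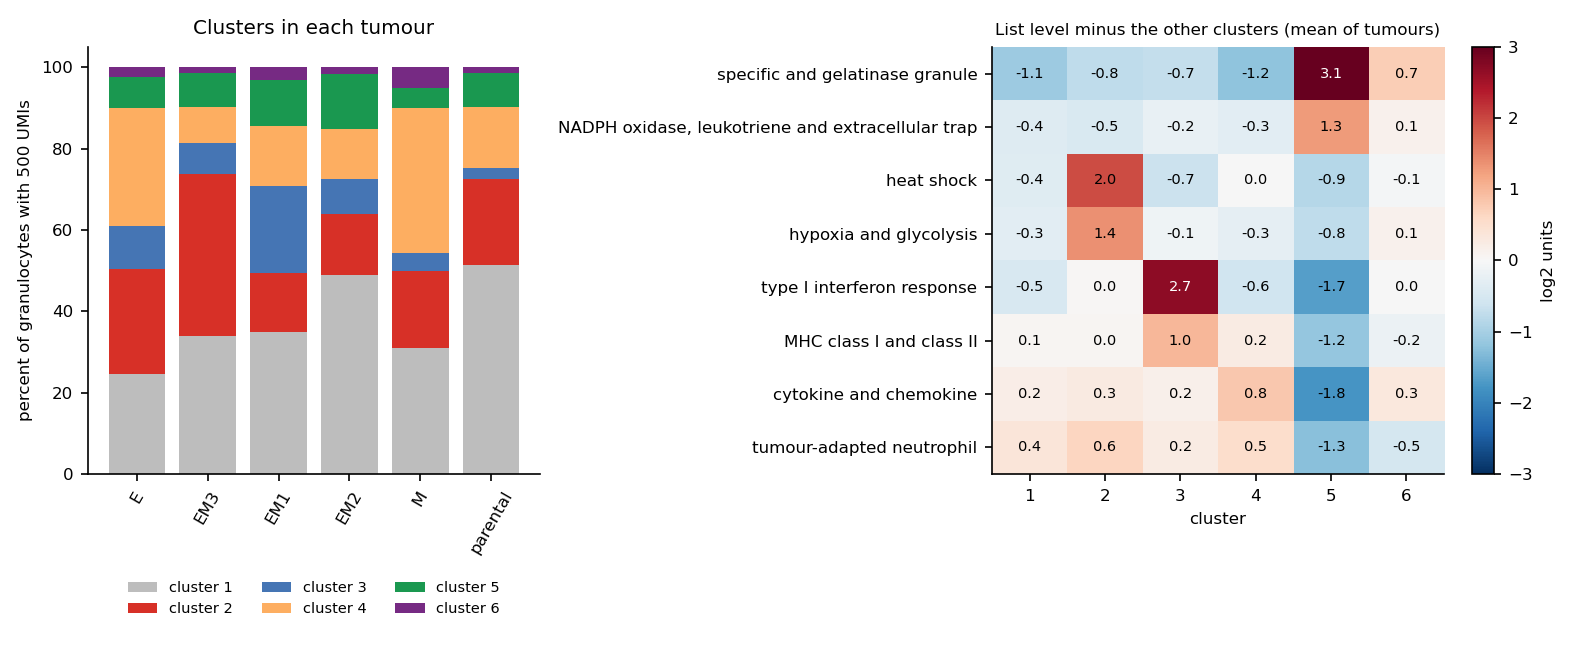
Left, percent of granulocytes with at least 500 UMIs in each of 6 clusters, by tumour. Right, mean over tumours of the level of 8 held-out gene lists in a cluster minus the mean of the other clusters (log2 units). The granule list stands out in cluster 5, heat shock and hypoxia in cluster 2 and the interferon list in cluster 3.

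The tumour differences were then read inside each cluster. The specific granule difference between EM2 and M, 1.38 log2 units over all granulocytes, was 0.80 inside cluster 5 and 0.36 inside cluster 1, and it had the opposite sign, -0.34, inside cluster 4. Inside cluster 5, Ltf was at 8020.2 CPM in EM2, 7479 in parental and 2242 in M. The interferon difference between EM1 and parental, 1.07 over all cells, was positive in 5 of 6 clusters, and inside the interferon cluster itself it was -0.38. Tap1 behaved otherwise: EM1 was above parental in all 6 clusters, with 661 and 313 CPM in cluster 3. Parental had only 35 cells in cluster 3 and 19 in cluster 6, against 248 and 35 in EM1, so its values there rest on few molecules. Interferon-induced genes outside the lists, such as Ifi47 and Gbp2b, were left in the clustering. A level inside cluster 3 is therefore no independent measure of how the tumours differ. The cytokine difference between E and EM1 kept its sign in 6 of 6 clusters, at 0.40 to 0.90, and the heat shock difference between EM3 and M in 6 of 6, at 0.69 to 1.56. The suppression, MHC, survival and annexin lists also kept theirs in 6 of 6. The hypoxia difference between EM3 and EM2, 0.57 over all cells, was -0.08 inside cluster 2, where that list is highest, and positive in 5 of 6. The receptor, tumour-adapted and transcription factor lists kept their sign in 5 of 6, and the oxidase and trap list in 3 of 6.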

How the data were processed

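Single-cell RNA was counted by the submitters in 12 libraries, a CD45 and a Total library from each of 6 tumours. The deposited matrices hold whole UMI counts per gene and cell, made with Cell Ranger against mm10 per the submitters' processing notes, and the authors' deposited metadata tables give each cell's class and its mitochondrial UMIs as a percent and as a fraction of all UMIs of the cell, neither of which was used to choose cells. How cells were filtered and whether doublets had been removed is not given in the sources used here.

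Granulocytes were taken from the authors' annotation, and 44 doublets were left out with a Scrublet score computed with scikit-image 0.26.0 and scanpy 1.11.5. UMI counts were summed per tumour and scaled to CPM, and genes of at least 50 CPM in at least 1 tumour were compared on log2(CPM + 10). With 1 tumour per group no test was made. Genes at least 2-fold apart were counted, with exact 95% Poisson intervals, or Clopper-Pearson intervals for shares, which cover counting error only. The Total library is a second library of the same tumour, not a replicate. To compare shares of cells with a UMI, cells were thinned to 500 UMIs; 1155 shallower granulocytes were left out of thinning and clustering. Clusters came from Leiden (leidenalg 0.10.2, resolution 0.5) on 2000 variable genes and 30 components. The method of counting was tested on simulated data.

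Named genes were the 5 markers, the up to 4 widest and 2 steadiest genes of each list, genes of 1 tumour apart, the 10 most abundant and the 8 leading genes of each cluster; other genes were named for the differences inside a barcode-sharing set. The members and the 15 lists were chosen with earlier results of these data known. List genes without a row (Mx1, Mx2, Gapdh, Eno1, BC100530) were not analysed here. Among the marker sets, only 3 of 4 monocyte, 3 of 4 NK cell and 2 of 3 erythroid markers had a row. Doublet calling, scaling, pseudocount, gene filter, thinning, macrophage-gene UMIs, library and resolution were varied. Promoters are from RefSeq.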

Additional observations from a re-analysis of the deposited data

Results flagged for a closer look

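In the Total library of EM2, which the comparisons use only as a second measurement, granulocytes held 352 UMIs of the azurophil granule genes Mpo, Elane, Prtn3, Ctsg and Ms4a3, the genes of early neutrophil development in marrow. Of these, 344 lay in 4 cells with at least 5 such UMIs each, whose median depth was 11823 UMIs. The Total library of M held 284 UMIs, 189 of them in 2 cells, and that of EM3 69, with 17 in 1 cell. The granulocytes of the CD45 libraries held 13 to 57 UMIs per tumour, and no cell had 5. In the CD45 library of EM2, 12 cells of other classes had at least 5 such UMIs, of which the annotation calls 8 other myeloid cells, 3 macrophages and 1 a dendritic cell.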

How the results depend on the processing

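No paired analysis was possible because each group is 1 tumour. Of 3167 genes tested, 415 had a 2-fold range, and with a pseudocount of 50 CPM 148 of the 3167 did. With no filter on low genes the count was 741 of 16834, a higher count but a smaller share. In cells without a UMI of C1qa, C1qb, C1qc or Adgre1 the count was 879 of 3360, a larger share. The Total libraries gave 951 of 4164, also a larger share. Leaving out tumours, chosen after seeing the data, gave 231 of 3086 without M and 160 of 3007 without M and parental. The range of a gene over fewer tumours cannot be wider, so a lower count there is built in. The specific granule difference of EM2 minus M, 1.38 log2 units, was 1.54 with size factors, 1.53 without the 20 most abundant genes, 1.42 and 1.24 with pseudocounts of 1 and 50, 1.27 after thinning, 1.89 in cells without macrophage UMIs and 1.63 in the Total libraries. The cytokine difference of E minus EM1, 0.77, was in the order of settings size factors, without the 20 genes, pseudocount of 50, no filter, thinning, no macrophage UMIs and Total libraries 0.54, 0.69, 0.69, 0.63, 0.69, 0.84 and 0.60. The interferon difference of EM1 minus parental, 1.07, was 1.26 with size factors, 1.20 and 0.78 with pseudocounts of 1 and 50, 0.86 with no filter and 1.26 in the Total libraries. The heat shock difference of EM3 minus M, 1.17, was 1.23 without the 20 genes, 1.29 and 0.89 with the pseudocounts, 0.93 with no filter and 0.93 in the Total libraries. The transcription factor difference of E minus EM2 reversed from 0.23 to -0.021 with size factors and was 0.11 without the 20 genes. Of 90 alternatives for the 9 lists beyond the first 4, transcription factors included, 41 moved beyond counting error; those that moved a value by over 1.5 times were, with size factors, oxidase and trap genes EM2 minus EM3 from 0.31 to 0.53, hypoxia EM3 minus EM2 from 0.57 to 0.36, suppression E minus EM2 from 0.50 to 0.24, survival M minus EM2 from 0.42 to 0.27 and tumour-adapted M minus EM2 from 0.33 to 0.17, which was 0.20 without the 20 genes and 0.18 after thinning. Thinning took the oxidase and trap difference to 0.11, and the Total libraries took hypoxia to 0.29 and receptors M minus EM3 from 0.17 to 0.10. At resolution 1.0 there were 12 clusters and not 6. The tumours in which 1 cluster was highest for the cytokine list, 4 at resolution 0.5, were 3 at 0.3 and 6 at 1.0, and for the hypoxia list 6 became 5 at 1.0; for the granule, interferon and heat shock lists they were 6 at each resolution. The granulocyte share of M minus EM2, 38.5 percentage points, stayed within 37.8 to 39.0 under its alternatives. The cause of these shifts was not tested. Over all genes tested, the median gene of EM2 lay -0.11 log2 units from the mean of the 6 tumours. Depth limits EM2 most, with 1001240 UMIs, and the intervals given cover counting error only; no replicate tumour bounds the spread between animals.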
